A study of Homo sapiens with 18 samples.

Results

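The genes described here are 9 plasma membrane amino acid transporter subunits, SLC3A2, SLC7A5, SLC7A11, SLC7A1, SLC1A5, SLC1A4, SLC38A2, SLC6A9 and SLC43A1. They were chosen as a fixed list of gene symbols, with earlier results of these data known. All 9 were found among the 35616 genes in the deposited expression table, and all 9 were among the 12005 genes tested, those with 1 scaled TPM or more in no fewer than 3 libraries. RNA was sequenced from HUDEP-2 cells, an established immortalised line of erythroid progenitors from human umbilical cord blood. Knockout cells, labelled HBBko for the adult beta-globin gene HBB, were set against wild-type (WT) cells of the same line before differentiation and 48 h and 5 d into it. The 6 groups are HBBko and WT undifferentiated, HBBko and WT at 48 h, and HBBko and WT at 5 d, with 3 libraries each. The series title names ATF4, MYB and gamma-globin as its subject. The labels used here give neither how HBB was disrupted nor how many knockout clones were grown, and they do not say that the triplicates were separate cultures, so p-values measure the spread between these libraries, which may be technical.

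The unit throughout is scaled TPM, a length-corrected share of the transcripts (TPM) with a further scaling between libraries. Library sums ran from 783213 to 1508342 scaled TPM and read depth is unknown. HBB itself was at 4598 to 4983 scaled TPM in HBBko against 12454 to 22376 in WT undifferentiated cells, at 22102 to 24265 against 99196 to 132741 at 48 h, and at 69004 to 72650.4 against 427628 to 458719 at 5 d, so it was lower in every HBBko library of a stage but not absent. WT replicate 3 stood apart from the other WT libraries when undifferentiated and at 48 h, with the highest HBB of its group. Globin transcripts took 1.65 to 1.80% of the sum in HBBko against 2.29 to 3.84% in WT undifferentiated cells, 13.0 to 13.7% against 20.2 to 24.7% at 48 h, and 38.7 to 39.9% against 50.5 to 52.1% at 5 d. All 8 erythroid markers looked at reached 1 scaled TPM, against 1 of 6 megakaryocyte, 1 of 6 myeloid, 4 of 6 mast cell, basophil and eosinophil, 0 of 5 lymphoid and 0 of 5 stromal and endothelial markers. The 6 mast cell, basophil and eosinophil genes together summed to 593 to 684 scaled TPM in HBBko against 356 to 482 in WT undifferentiated cells, 14.7 to 18.6 against 11.4 to 13.7 at 48 h and 26.4 to 37.4 against 20.4 to 22.1 at 5 d. Their part in the results was not tested. PF4 and PPBP (megakaryocyte), CLC (eosinophil and basophil), CD3E and MS4A1 (lymphoid) were at 0 in all 18 libraries.

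Amino acids cross the plasma membrane through solute carriers that either concentrate them with the sodium gradient or swap one amino acid for another. SLC3A2 (CD98, the 4F2 heavy chain) is a glycoprotein that carries light chains to the surface, among them SLC7A5 (LAT1, large neutral amino acids such as leucine) and SLC7A11 (xCT, which takes up cystine in exchange for glutamate). Developing red cells draw on these routes for globin synthesis, and on glycine for heme. When amino acids run short, phosphorylation of eIF2alpha raises translation of the transcription factor ATF4, which binds C/EBP-ATF response elements in genes for amino acid uptake and synthesis. Many genes of the set, SLC7A11, SLC7A5, SLC3A2 and SLC7A1 among them, are known ATF4 targets in other cell types.

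In undifferentiated cells 8 of the 9 transporters were lower in HBBko than in WT and none was higher, where 22.3% of all tested genes were lower and 20.9% higher. At 48 h all 9 were lower, against 9.21% of all tested genes lower and 9.52% higher. At 5 d 7 of 9 were lower and none higher, against 24.8% lower and 26.5% higher among all genes. The median log2 fold change (HBBko over WT, of scaled TPM + 1) of the 9 was -1.04, -0.53 and -0.42 in undifferentiated cells, at 48 h and at 5 d, beside -0.01, 0.02 and 0.02 for all tested genes. These calls come from limma with Benjamini-Hochberg adjustment over all tested genes at an adjusted p under 0.05. Because the list was chosen with earlier results known, these counts describe the set and do not test it independently. In bulk RNA, fewer cells expressing a transporter and less of its RNA per cell cannot be told apart. Leaving out any 1 library of a stage gave 7 to 8 of the 9 lower at 48 h, 8 to 9 in undifferentiated cells and 6 to 7 at 5 d. Without WT replicate 3 at 48 h alone the count at 48 h was 7. Without WT replicate 3 of both early stages, a setting added after the data were seen, 9 of 9 were lower in undifferentiated cells and 9 of 9 at 48 h. Setting every library to the same sum left 3 of the 9 lower at 5 d. There SLC1A5 was at 0.081, SLC7A11 at 0.17 and SLC1A4 at 0.27, and the median of all genes moved to 0.27. Among all tested genes 1060 were lower and 6516 higher at 5 d under that scaling, beside 2974 (24.8%) and 3183 (26.5%) as tested. That scaling also moved the share of calls that were higher among all genes to 84.2% at 48 h and 86.0% at 5 d, beside 50.8% and 51.7% as tested.

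**Figure D1:**
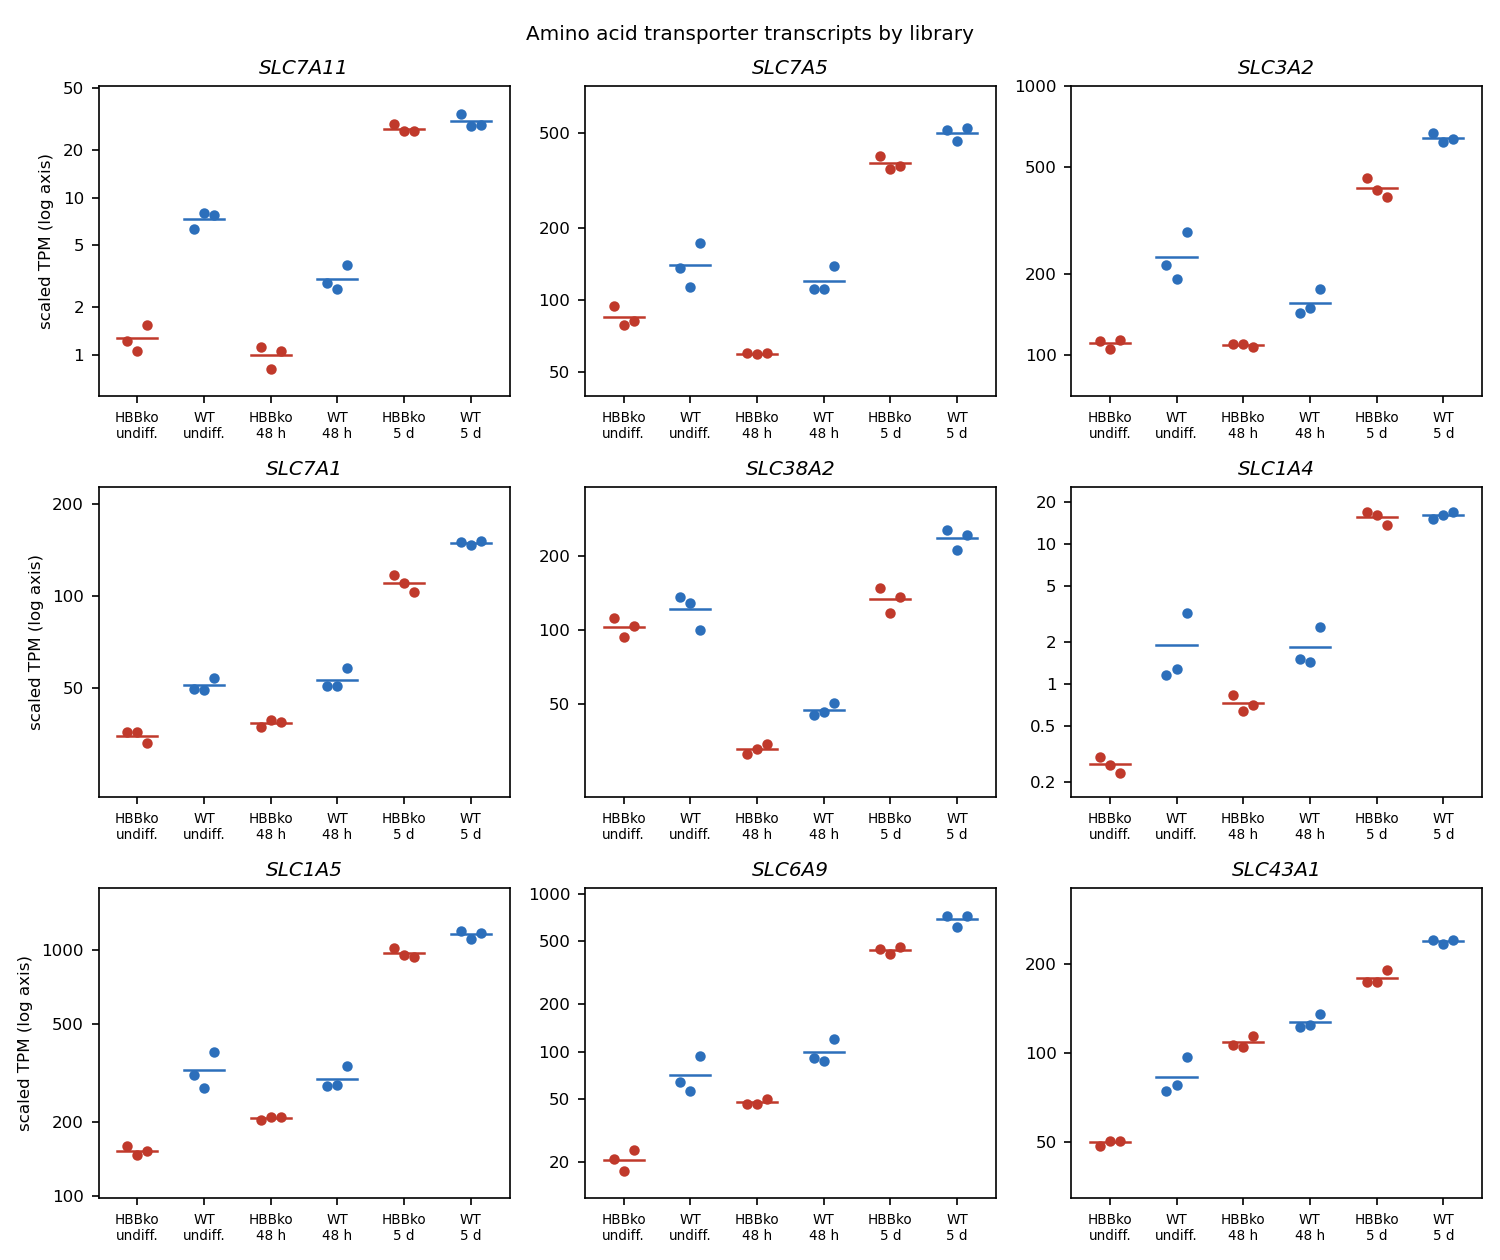
Scaled TPM (log axis, a separate range for each gene) of the 9 transporters in each of the 18 libraries, HBBko in red and WT in blue; points are libraries in replicate order and lines are group means. HBBko points lie below every WT point of their stage except for SLC38A2 in undifferentiated cells and for SLC7A11 and SLC1A4 at 5 d, and all 9 genes are higher at 5 d than at 48 h in both lines.

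The heavy chain SLC3A2 and the light chain SLC7A5 were lower in HBBko at each stage, and the light chain SLC7A11 was lower in undifferentiated cells and at 48 h. SLC3A2 (chr11:62856102-62888875, plus strand, GRCh38) had 113, 105 and 114 scaled TPM in undifferentiated HBBko cells, against 216, 192 and 286 in WT. At 48 h SLC3A2 had 110.4, 110.1 and 107 scaled TPM in HBBko, against 144, 149 and 175 in WT. At 5 d SLC3A2 had 457, 411 and 387 scaled TPM in HBBko, against 668, 620.2 and 635 in WT. The groups did not overlap at any stage, and the HBBko level at 48 h was within 1 SD of the undifferentiated HBBko level. The log2 fold change of SLC3A2 was -1.04 ± 0.11 (± SE of the fit; adjusted p = 1.81e-06, limma) in undifferentiated cells, -0.51 ± 0.11 (adjusted p = 0.00347, limma) at 48 h and -0.62 ± 0.11 (adjusted p = 0.000134, limma) at 5 d.

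SLC7A5 (chr16:87830023-87869488, minus strand) had 94.5, 78.5 and 81.7 scaled TPM in undifferentiated HBBko cells, against 136, 113 and 173 in WT. At 48 h SLC7A5 had 59.8, 59.1 and 59.6 in HBBko, against 111, 111 and 139 in WT. At 5 d SLC7A5 had 401, 352 and 365 in HBBko, against 514, 463 and 525 in WT. Its groups were separate at each stage. The log2 fold changes of SLC7A5 were -0.70 ± 0.12 (adjusted p = 0.00019, limma), -0.996 ± 0.12 (adjusted p = 2.33e-05, limma) and -0.42 ± 0.12 (adjusted p = 0.0067, limma) at the successive stages, the last of them -0.09 and not called under equal library sums.

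SLC7A11 (chr4:138164097-138242349, minus strand) was lower in HBBko at the early stages and was 1 of the 2 members without a call at 5 d. It had 1.22, 1.05 and 1.54 scaled TPM in undifferentiated HBBko cells, against 6.33, 7.98 and 7.77 in WT. At 48 h SLC7A11 had 1.12, 0.815 and 1.05 in HBBko, against 2.84, 2.61 and 3.71 in WT. At 5 d SLC7A11 had 29.6, 26.6 and 26.4 in HBBko, against 34.3, 28.6 and 29.2 in WT, and the groups overlapped. The group means were 5.79-fold lower in HBBko in undifferentiated cells and 3.06-fold lower at 48 h. On the log2(scaled TPM + 1) scale, which understates changes at such low levels, the differences were -1.88 ± 0.11 (adjusted p = 7.09e-09, limma) and -1.01 ± 0.11 (adjusted p = 1.24e-05, limma); at 5 d the value was -0.15 ± 0.11 (adjusted p = 0.294, limma). A pseudocount of 0.1 or 5 moved the undifferentiated difference to -2.45 or -0.98 and the 48 h difference to -1.52 or -0.42, each still called.

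Because a light chain needs its heavy chain, the 2 were also compared within each library, where no scaling between libraries enters. SLC7A5 stood at 0.718 to 0.839 per unit of SLC3A2 in undifferentiated HBBko cells, against 0.588 to 0.628 in WT. At 48 h the ratio was 0.537 to 0.555 in HBBko, against 0.746 to 0.792 in WT. At 5 d it was 0.855 to 0.944 in HBBko, against 0.747 to 0.826 in WT. All 3 HBBko ratios lay above all 3 WT ratios before differentiation and at 5 d, and below them at 48 h. SLC7A11 per 100 units of SLC3A2 was 0.998 to 1.35 in HBBko against 2.72 to 4.15 in WT in undifferentiated cells, 0.74 to 1.02 against 1.75 to 2.11 at 48 h, and 6.46 to 6.83 against 4.59 to 5.14 at 5 d. The HBBko ratios lay below those of WT at the early stages and above them at 5 d. With 3 libraries against 3, an exact two-sided permutation test cannot go below p = 0.10, and each of 15 such comparisons of 5 ratios gave 0.10, also after Benjamini-Hochberg adjustment.

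**Figure D2:**
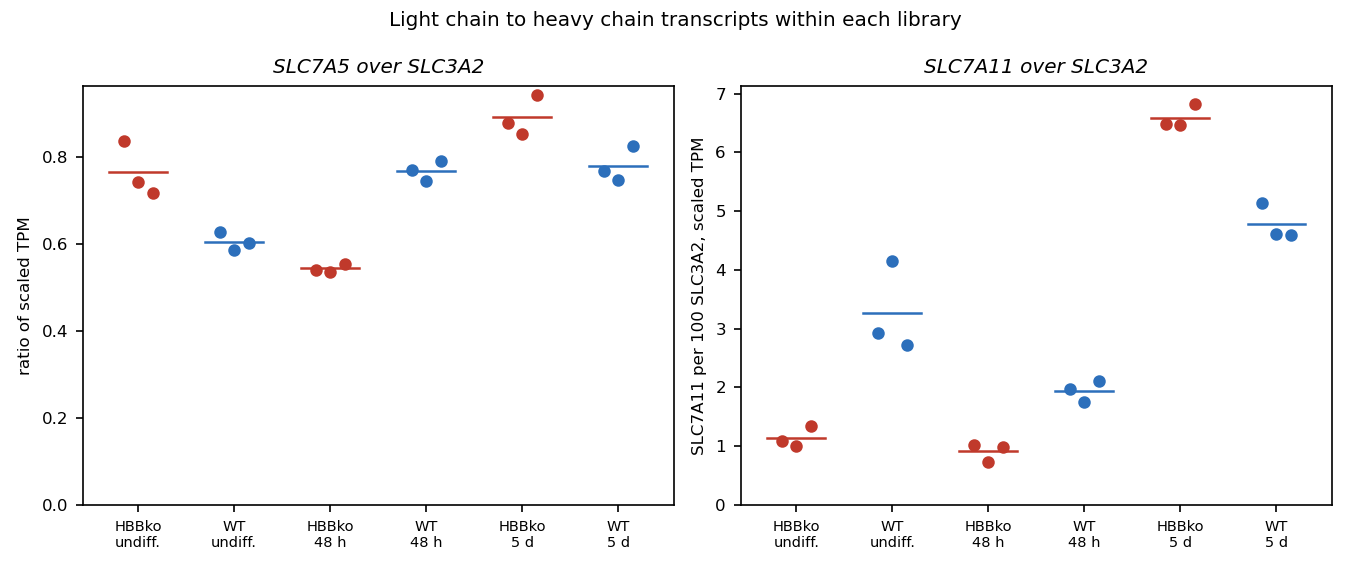
Ratio of SLC7A5 to SLC3A2 (left) and SLC7A11 per 100 SLC3A2 (right), from scaled TPM within each library, HBBko in red and WT in blue; points are libraries and lines group means. HBBko lies below WT at 48 h in both panels and above WT at 5 d, where SLC7A11 reaches 6.46 to 6.83 per 100 SLC3A2 in HBBko against 4.59 to 5.14 in WT.

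The other light chains that pair with SLC3A2 were called in both directions. SLC7A6 (y+LAT2) was higher in HBBko, at a mean of 27.1 ± 2.60 against 16.7 ± 3.56 scaled TPM in WT undifferentiated cells (SD, n = 3 each; log2 fold change 0.68 ± 0.12, adjusted p = 0.00024, limma) and 8.56 ± 0.809 against 6.42 ± 0.504 at 48 h (0.36 ± 0.12, adjusted p = 0.0405, limma). SLC7A8 (LAT2) was lower in undifferentiated HBBko cells, at 4.50 ± 0.530 against 7.23 ± 0.169 scaled TPM in WT (SD, n = 3 each). SLC7A7 and SLC7A10 stayed under 1 scaled TPM in every group mean. The sum of SLC7A5, SLC7A6, SLC7A7, SLC7A8, SLC7A10 and SLC7A11 per unit of SLC3A2 was 1.00 to 1.16 in HBBko against 0.702 to 0.784 in WT undifferentiated cells, 0.682 to 0.711 against 0.85 to 0.887 at 48 h and 0.933 to 1.03 against 0.801 to 0.879 at 5 d, the same order of the lines as for SLC7A5 alone. SLC7A5 made up most of this sum in each group mean (84.9 of 118 scaled TPM in undifferentiated HBBko cells). The shared order is therefore largely that of SLC7A5.

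SLC7A1 (CAT1; chr13:29509410-29595688, minus strand), the carrier of arginine and lysine, needs no heavy chain and was lower in HBBko at each stage. It was at 33.1 to 36.0 scaled TPM in HBBko against 49.5 to 54.2 in WT undifferentiated cells, 37.3 to 39.4 against 50.8 to 58.2 at 48 h, and 104 to 117 against 147 to 151 at 5 d, without overlap. The log2 fold changes were -0.53 ± 0.06 (adjusted p = 4.44e-06, limma), -0.46 ± 0.06 (adjusted p = 5.96e-05, limma) and -0.44 ± 0.06 (adjusted p = 1.34e-05, limma), the last -0.10 and not called under equal library sums, where the change of the difference from 48 h to 5 d was called (0.22, adjusted p = 0.0441, limma; 0.020 and 0.891 as tested).

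SLC1A5 (ASCT2; chr19:46774883-46788594, minus strand), a sodium-dependent exchanger of glutamine and other neutral amino acids, was the most abundant of the 9 in each group mean. In undifferentiated cells SLC1A5 had 159, 146 and 151 scaled TPM in HBBko, against 311, 275 and 384 in WT. At 48 h SLC1A5 had 204, 209 and 208 in HBBko, against 280.3, 281 and 338 in WT. At 5 d SLC1A5 had 1019, 956 and 939.8 in HBBko, against 1197, 1108 and 1177 in WT. The groups were separate at each stage, with log2 fold changes of -1.07 ± 0.09 (adjusted p = 2.75e-07, limma), -0.53 ± 0.09 (adjusted p = 0.000839, limma) and -0.26 ± 0.09 (adjusted p = 0.0272, limma). The 5 d call was lost without the filter on low values (adjusted p = 0.0737, limma) and without HBBko replicate 2 (adjusted p = 0.0696, limma), HBBko replicate 3 (0.083), WT replicate 1 (0.0805) or WT replicate 3 (0.0695), and its sign turned under equal library sums.

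SLC1A4 (ASCT1; chr2:64988477-65023865, plus strand), the related exchanger of alanine, serine and cysteine, was the least abundant of the 9 in each group mean. SLC1A4 had 0.304, 0.265 and 0.234 scaled TPM in undifferentiated HBBko cells, against 1.16, 1.28 and 3.25 in WT. At 48 h SLC1A4 had 0.843, 0.643 and 0.706 in HBBko, against 1.52, 1.45 and 2.56 in WT. At 5 d SLC1A4 had 17.0, 16.3 and 13.6 in HBBko, against 15.2, 16.03 and 17.1 in WT. WT replicate 3 was the highest WT library at both early stages, the lines were separate there, and they overlapped at 5 d. The log2 fold changes were -1.12 ± 0.19 (adjusted p = 0.000218, limma), -0.70 ± 0.19 (adjusted p = 0.0183, limma) and -0.044 ± 0.19 (adjusted p = 0.875, limma). At 48 h the call was lost without WT replicate 3 (-0.52, adjusted p = 0.115, limma), HBBko replicate 2 (adjusted p = 0.0642) or HBBko replicate 3 (0.0564), with a pseudocount of 5, which also moved it to -0.25, and without the filter on low values. A pseudocount of 0.1 or 5 moved the undifferentiated difference to -2.29 or -0.38, each still called. SLC1A5 exceeded SLC1A4 by 522 to 647 times in HBBko against 118 to 269 times in WT undifferentiated cells, and by 58.7 to 68.9 against 69.0 to 78.8 times at 5 d.

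SLC38A2 (SNAT2; chr12:46358189-46372867, minus strand), which concentrates small neutral amino acids with sodium, was lower in HBBko at 48 h and at 5 d and not called before. In undifferentiated cells SLC38A2 had 111, 93.8 and 104 scaled TPM in HBBko, against 136, 128 and 100.2 in WT, with overlap through WT replicate 3. At 48 h SLC38A2 had 31.5, 33.1 and 34.5 in HBBko, against 45.0, 46.7 and 50.8 in WT. At 5 d SLC38A2 had 147, 117 and 136 in HBBko, against 254, 211 and 244 in WT. The log2 fold changes were -0.23 ± 0.11 (adjusted p = 0.0966, limma), -0.51 ± 0.11 (adjusted p = 0.00307, limma) and -0.82 ± 0.11 (adjusted p = 7.49e-06, limma). The change of the difference from 48 h to 5 d was not called (-0.30, adjusted p = 0.152, limma). Without WT replicate 3 the undifferentiated difference was -0.36 and called (adjusted p = 0.0077, limma).

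SLC6A9 (GlyT1; chr1:43991500-44031467, minus strand) takes up glycine, the substrate of the first step of heme synthesis, and is needed for full hemoglobin production in mouse red cell precursors. In undifferentiated cells SLC6A9 had 20.7, 17.6 and 23.7 scaled TPM in HBBko, against 64.3, 56.7 and 93.7 in WT. At 48 h SLC6A9 had 46.9, 46.8 and 50.2 in HBBko, against 90.7, 87.7 and 120.4 in WT. At 5 d SLC6A9 had 450.3, 417 and 459 in HBBko, against 724, 622 and 728 in WT. The groups were separate at each stage, and the mean was 3.46-fold lower in HBBko before differentiation, 2.08-fold lower at 48 h and 1.56-fold lower at 5 d. The log2 fold changes were -1.72 ± 0.15 (adjusted p = 3.23e-07, limma), -1.03 ± 0.15 (adjusted p = 0.000179, limma) and -0.64 ± 0.15 (adjusted p = 0.00181, limma). SLC25A38, the mitochondrial glycine importer of heme synthesis, named here after its values were seen, had log2 fold changes of -0.36, -0.49 and 0.018, none of them called.

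SLC43A1 (LAT3; chr11:57484534-57515786, minus strand), a facilitative carrier of leucine and other large neutral amino acids, works without a heavy chain and was lower in HBBko at each stage. It was at 48.2 to 50.5 scaled TPM in HBBko against 74.1 to 96.8 in WT undifferentiated cells, 105 to 114 against 122 to 135 at 48 h, and 175 to 191 against 235 to 242 at 5 d. No HBBko library reached a WT library of its stage. The log2 fold changes were -0.72 ± 0.08 (adjusted p = 2.32e-06, limma), -0.23 ± 0.08 (adjusted p = 0.0437, limma) and -0.41 ± 0.08 (adjusted p = 0.000242, limma). The 48 h call was lost without any 1 of the 6 libraries of that stage (adjusted p = 0.0539 to 0.191, limma), without the filter on low values and under equal library sums, where the value was -0.09; equal sums also ended the 5 d call, at -0.07.

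**Figure D3:**
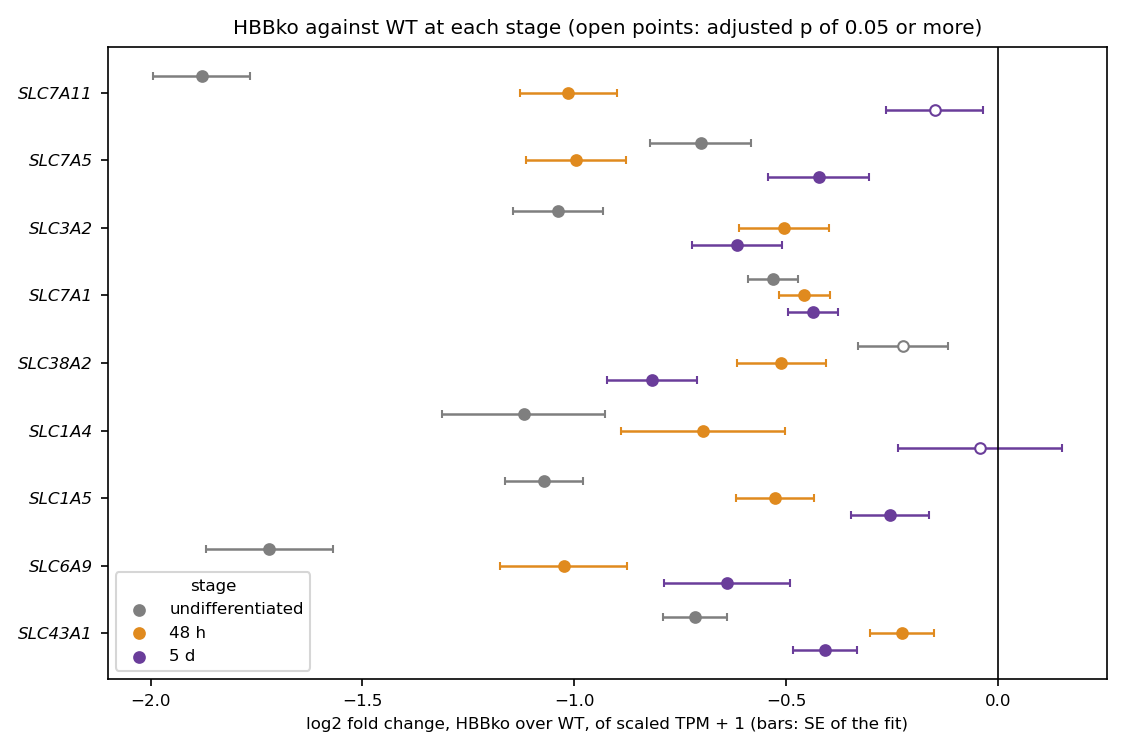
Log2 fold change, HBBko over WT, of scaled TPM + 1 for each transporter (rows) in undifferentiated cells, at 48 h and at 5 d (grey, orange and purple); bars are the SE of the limma fit and open points have an adjusted p of 0.05 or more. Every point lies left of 0, from -1.88 for SLC7A11 in undifferentiated cells to -0.044 for SLC1A4 at 5 d, and under equal library sums SLC7A11, SLC1A4 and SLC1A5 at 5 d lie right of 0.

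The size of the difference between the lines changed with the stage for part of the set. From undifferentiated to 48 h, the HBBko effect moved toward 0 for 5 of the 9 (the difference of log2 fold changes was positive), against 7.67% of all tested genes with a positive call. These were SLC7A11 (0.86 ± 0.16, adjusted p = 0.0035, limma), SLC6A9 (0.69 ± 0.21, 0.0397), SLC1A5 (0.54 ± 0.13, 0.0132), SLC3A2 (0.53 ± 0.15, 0.0293) and SLC43A1 (0.49 ± 0.11, 0.00853). SLC7A5 and SLC38A2 had values of -0.29 and -0.29, toward a wider gap, that were not called. From 48 h to 5 d, 2 of the 9 moved toward 0, SLC7A11 by 0.86 ± 0.16 (adjusted p = 0.000923, limma) and SLC7A5 by 0.57 ± 0.17 (adjusted p = 0.0199, limma), against 11.5% of all tested genes. Without WT replicate 3 at 48 h, SLC7A5 was no longer called in the step to 5 d and the count was 1. In the step to 48 h, the count was 3 without HBBko replicate 1 or 2 of the undifferentiated stage, without any 1 of the 3 HBBko libraries at 48 h, or without WT replicate 1 or 2 at 48 h. Without WT replicate 3 of the undifferentiated stage SLC6A9 was not called (0.49, adjusted p = 0.0643, limma) and SLC7A5 was, at -0.45 (adjusted p = 0.0394, limma). Over 21 alternative settings of that step, SLC3A2 was called in 12 and SLC6A9 in 9, and SLC7A11, SLC1A5 and SLC43A1 were called in all 21. Under equal library sums the calls among all genes were 84.6% positive in the step to 48 h and 80.8% in the step to 5 d, beside 58.2% and 46.7% as tested, and 6 of the 9 were called in the step to 5 d, with SLC7A1, SLC1A4, SLC1A5 and SLC6A9 added to SLC7A11 and SLC7A5.

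Over the first 48 h of differentiation the transporters were called in both directions, as were all tested genes. Counts of a few genes near the shares of all tested genes are no result about the set. In HBBko cells 3 rose, SLC6A9 (1.18 ± 0.15, 48 h over undifferentiated; adjusted p = 2.14e-06, limma), SLC43A1 (1.11 ± 0.08, 8.8e-10) and SLC1A5 (0.44 ± 0.09, 0.000414), where 25.1% of all tested genes rose. SLC38A2 (-1.61 ± 0.11, adjusted p = 5.88e-10, limma) and SLC7A5 (-0.50 ± 0.12, 0.00134) fell in HBBko, where 40.1% of all tested genes fell. In WT cells SLC43A1 (0.62 ± 0.08, adjusted p = 1.33e-06, limma) and SLC6A9 (0.49 ± 0.15, 0.00839) rose, beside 23.5% of all tested genes, and SLC38A2 (-1.33 ± 0.11, 7.31e-09), SLC7A11 (-1.05 ± 0.11, 3.85e-07) and SLC3A2 (-0.55 ± 0.11, 0.000229) fell, beside 41.4%. SLC38A2 thus fell to 33.0 ± 1.51 scaled TPM at 48 h in HBBko, against 103 ± 8.87 in undifferentiated HBBko cells, and to 47.5 ± 2.97 at 48 h in WT, against 122 ± 19.0 in undifferentiated WT cells (SD, n = 3 each). The WT call of SLC6A9 was lost without WT replicate 2 of the undifferentiated stage (0.34, adjusted p = 0.0589, limma), without WT replicate 3 at 48 h (0.35, 0.0603) and in a fit of the WT groups alone (0.0520). Calls were gained in WT by SLC7A5 without undifferentiated replicate 2 (-0.35, adjusted p = 0.0106, limma) or 48 h replicate 3 (-0.31, 0.0380), by SLC1A5 without undifferentiated replicate 2 (-0.21, 0.0391) and by SLC1A4 without undifferentiated replicate 3 (0.34, 0.0340). Under equal library sums, which moved the median of all genes to -0.28 in WT, 6 of the 9 fell and 2 rose in WT. Among all tested genes 6694 fell and 1592 rose in WT under that scaling, beside 4974 (41.4%) and 2816 (23.5%) as tested. In HBBko the count that rose was 5, with SLC7A1 and SLC1A4 added, under median-of-ratios scaling (0.24, adjusted p = 0.00252, and 0.46, 0.0410, limma), equal sums without globin genes (0.20, 0.00489, and 0.56, 0.0188) and in a fit of the HBBko groups alone (0.13, 0.0227, and 0.45, 0.000829). SLC1A4 alone was added in HBBko under equal sums (0.47, adjusted p = 0.0321, limma) and with a pseudocount of 0.1 (1.17, 0.00146). SLC7A1, not called in WT as tested, fell in WT under equal sums (-0.14, adjusted p = 0.0279, limma) and rose in WT under median-of-ratios scaling (0.19, 0.0107) and equal sums without globin genes (0.16, 0.0200). The share of calls that were higher among all genes was 38.5% in HBBko and 36.1% in WT as tested, 29.3% and 19.2% under equal sums, 49.7% and 50.6% under median-of-ratios scaling, and 46.3% and 47.2% under equal sums without globin genes.

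From 48 h to 5 d all 9 rose in both lines, where 30.2% of all tested genes rose in HBBko and 30.8% in WT. The median log2 fold change of the 9 was 2.23 in HBBko and 2.05 in WT, beside -0.20 for all tested genes in each line. All 9 were called higher in both lines under each alternative setting. The share of calls that were higher among all genes was 37.9% in HBBko and 38.4% in WT as tested, 20.4% and 16.2% under equal sums, 50.3% and 50.5% under median-of-ratios scaling, and 40.9% and 40.0% under equal sums without globin genes. In HBBko the changes ran from 0.72 ± 0.08 for SLC43A1 (adjusted p = 9.58e-08, limma) to 3.84 ± 0.11 for SLC7A11 (adjusted p = 1.64e-14, limma), and SLC1A4 (3.26), SLC6A9 (3.18) and SLC7A5 (2.62) followed SLC7A11. In WT they ran from 0.91 ± 0.08 for SLC43A1 (adjusted p = 4.74e-09, limma) to 2.97 ± 0.11 for SLC7A11 (adjusted p = 1.99e-13, limma). Over the whole course, the ratio of group means at 5 d over undifferentiated cells was 58.4 in HBBko and 8.50 in WT for SLC1A4 (13.2 in WT without replicate 3 of the undifferentiated stage), 21.7 and 4.17 for SLC7A11, 21.4 and 9.66 for SLC6A9, and 6.39 and 3.59 for SLC1A5. SLC38A2 had the smallest such ratio in both lines, 1.30 in HBBko and 1.94 in WT. The SLC1A4 ratio in HBBko rests on undifferentiated levels of 0.234 to 0.304 scaled TPM, under the threshold of 1, so its size is uncertain. As tested, the change of the HBBko effect on SLC1A4 was called in neither step (adjusted p = 0.326 and 0.0919, limma).

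The order of the levels, which scaled TPM allows because it is length-corrected, shifted with differentiation. SLC1A5 led each group mean, with 27.0 to 27.6% of the summed level of the 9 in HBBko against 30.5 to 32.0% in WT undifferentiated cells and 35.8 to 37.0% against 31.4 to 32.1% at 5 d. SLC6A9 stood seventh in HBBko and sixth in WT undifferentiated cells and second in both lines at 5 d, where its libraries overlapped those of SLC3A2, the next below. SLC6A9 made up 3.33 to 4.23% of the sum in HBBko against 6.28 to 7.82% in WT undifferentiated cells, and 16.004 to 17.5% against 18.01 to 19.4% at 5 d. SLC38A2 went the other way, with 17.7 to 19.1% in HBBko against 8.36 to 14.2% in WT undifferentiated cells and 4.55 to 5.24% against 6.11 to 6.68% at 5 d. Other neighbours whose libraries overlapped were SLC3A2 with SLC38A2 and SLC38A2 with SLC7A5 in undifferentiated HBBko cells, SLC3A2 with SLC43A1 and SLC7A11 with SLC1A4 in HBBko at 48 h, and SLC3A2 with SLC7A5 in HBBko at 5 d. In WT they were SLC1A5 with SLC3A2, SLC7A5 with SLC38A2 and SLC43A1 with SLC6A9 in undifferentiated cells, SLC43A1 with SLC7A5 and SLC7A5 with SLC6A9 at 48 h, and SLC43A1 with SLC38A2 at 5 d. The 9 together summed to 529 to 584 scaled TPM in HBBko against 902 to 1199 in WT undifferentiated cells, 599 to 615 against 848 to 1023 at 48 h, and 2581 to 2813 against 3451 to 3796 at 5 d.

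Other amino acid transporters were called in both directions, as were all tested genes. Of all tested genes, 20.9, 9.52 and 26.5% were higher in HBBko in undifferentiated cells, at 48 h and at 5 d. The shares that were lower were 22.3, 9.21 and 24.8%. Counts of a few genes near these shares are no result about a list. Of 34 further plasma membrane amino acid transporters, 8 were tested; 4 were higher and 1 lower in undifferentiated HBBko cells, 1 and 1 at 48 h and 2 and 1 at 5 d, with median log2 fold changes of 0.32, 0.03 and 0.08. In undifferentiated cells the taurine transporter SLC6A6 (1.11), SLC7A6 (0.68) and the facilitative carrier SLC43A2 (LAT4, 0.61), a relative of SLC43A1, were higher in HBBko, and SLC7A8 (-0.59) was lower. At 48 h the neutral amino acid carrier SLC6A19 was lower (-0.55), and at 5 d SLC6A6 was lower (-0.51) while the proton-coupled carrier SLC36A1 (0.44) and SLC6A19 (0.30) were higher. The 48 h call of SLC7A6 was lost under median-of-ratios scaling (adjusted p = 0.0543, limma), equal sums without globin genes (0.0715) and without WT replicate 3 (0.0766), and that of SLC6A6 at 5 d under equal sums (0.191). Of 9 genes listed here as lysosomal transporters, whose location and substrates were not measured, 8 were tested. In HBBko 3 were higher and 1 lower in undifferentiated cells, 1 and 0 at 48 h and 3 and 1 at 5 d. Their median log2 fold changes were 0.11, 0.08 and 0.07. The higher call at 48 h was SLC38A6, and those at 5 d were SLC38A10, SLC38A6 and SLC38A9. The lysosomal cystine exporter CTNS was the widest of this list at 5 d (-1.10 ± 0.08, adjusted p = 9.27e-09, limma). Of 13 genes listed here as mitochondrial amino acid carriers, whose substrates were not measured, 11 were tested. In HBBko 4 were higher and 2 lower (SLC25A29 and SLC25A39) in undifferentiated cells, 3 and 1 at 48 h and 5 and 3 at 5 d. The glutamate carrier SLC25A22 was higher (0.71, 0.28 and 0.56) and the basic amino acid carrier SLC25A29 lower (-0.71, -0.40 and -0.56) at all 3 stages. The median of the mitochondrial carriers was 0.04, 0.05 and 0.02, and -0.06 in undifferentiated cells without WT replicate 3. At 48 h the call of SLC25A29 was lost under equal sums with globin genes (adjusted p = 0.125, limma) and without them (0.0584), and those of SLC25A22 and SLC25A12 without WT replicate 3 (0.0771 and 0.0707), which left 1 higher and 1 lower of these carriers; leaving out WT replicate 3 of both early stages gave 3 higher and 3 lower.

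Most tested non-transporter genes of the amino acid response were lower in HBBko at each stage. Among all tested genes 22.3, 9.21 and 24.8% were lower and 20.9, 9.52 and 26.5% higher at these stages. Of 28 tested of 29 other response genes, 25 were lower and 1 higher in undifferentiated HBBko cells (ALDH18A1, 0.24, named after its values were seen), 21 lower and 0 higher at 48 h, and 24 lower and 0 higher at 5 d, with median log2 fold changes of -1.23, -0.89 and -1.04. Equal library sums gave 25 lower and 1 higher, 21 and 1, and 20 and 3, and without WT replicate 3 of both early stages 25 were lower and 1 higher in undifferentiated cells and 22 and 0 at 48 h. The widest in undifferentiated cells were CHAC1 (-3.60), which degrades glutathione, the peptide hormone gene ADM2 (-2.45), the mTORC1 inhibitor SESN2 (-2.34) and CTH (-2.25), which makes cysteine. At 48 h they were CHAC1 (-2.28), the mTORC1 inhibitor DDIT4 (-2.12), the alanine aminotransferase GPT2 (-1.82) and the serine synthesis enzyme PSAT1 (-1.76), and at 5 d TRIB3 (-2.44), an ATF4 inhibitor, the secreted glycoprotein STC2 (-2.21), SESN2 (-1.79) and the serine synthesis enzyme PHGDH (-1.66). ATF4 mRNA was at 292 ± 17.7 scaled TPM in HBBko against 578 ± 109 in WT undifferentiated cells, 267 ± 0.962 against 394 ± 24.1 at 48 h and 731 ± 54.5 against 732 ± 27.2 at 5 d (SD, n = 3 each). ATF4 was lower in HBBko at the early stages (-0.97, adjusted p = 9.73e-07; -0.56, adjusted p = 0.000609, limma), and at 5 d its log2 fold change was -0.004 ± 0.09 (adjusted p = 0.976, limma). ATF4 protein was not measured in these data, and whether ATF4 acted on the members here was not tested.

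**Figure D4:**
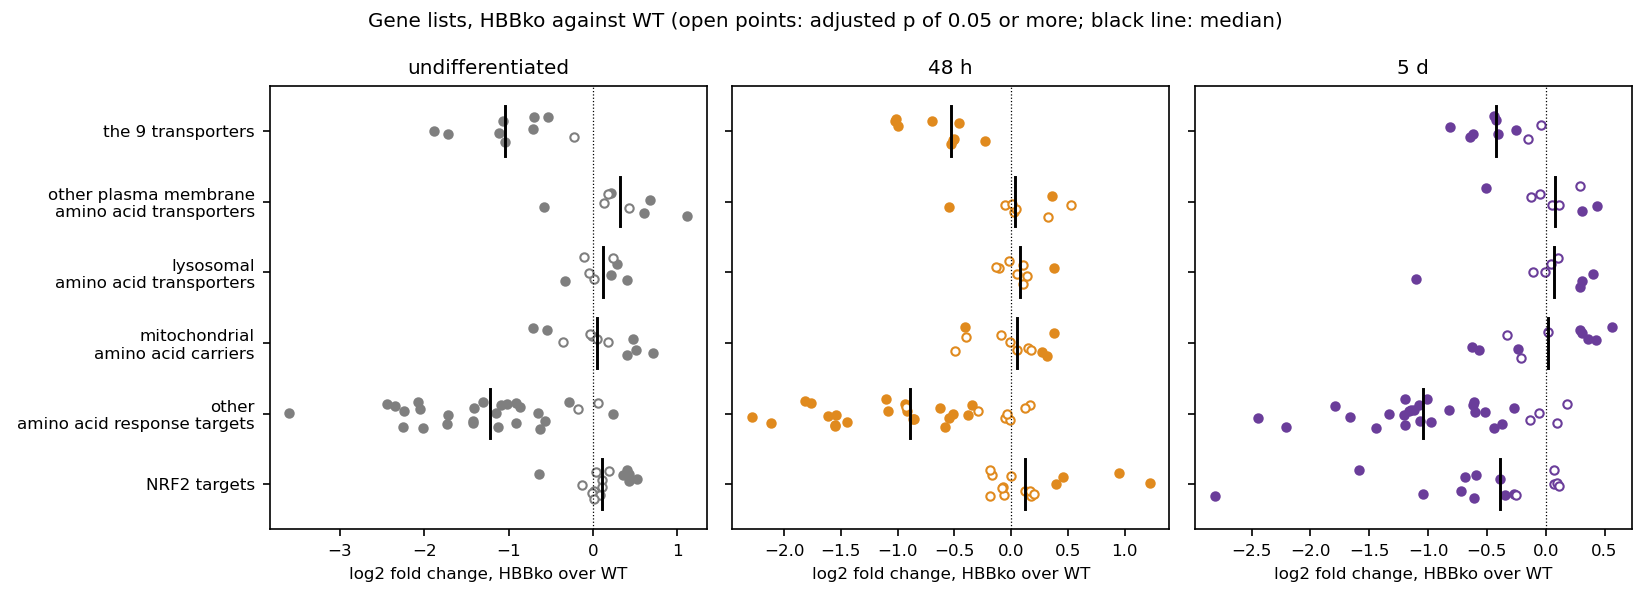
Log2 fold change, HBBko over WT, of scaled TPM + 1 for the 9 transporters and 5 other gene lists (rows) at each stage (panels, each with its own axis range); points are tested genes, filled where the adjusted p is under 0.05, and black lines are medians. The medians of the 9 transporters (-1.04, -0.53 and -0.42) and of the other amino acid response targets lie left of 0 at each stage. The medians of the genes listed as plasma membrane, lysosomal and mitochondrial transporters, by list name only, lie right of 0 (the mitochondrial one at -0.06 in undifferentiated cells without WT replicate 3, and at -0.0096 at 5 d under median-of-ratios scaling).

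SLC7A11 is also a known target of NRF2 (gene NFE2L2), the activator of antioxidant genes. NFE2L2 mRNA was lower in HBBko at each stage (-0.37, -0.28 and -0.77). Of 15 other NRF2 targets, 5 were higher and 1 lower in undifferentiated HBBko cells, and 4 were higher and none lower at 48 h. Their median log2 fold changes were 0.10 and 0.13, where 20.9 and 9.52% of all tested genes were higher and 22.3 and 9.21% lower. In undifferentiated cells the heme transporter SLC48A1 was lower (-0.64), and the drug and glutathione conjugate exporter ABCC1 (0.52), the malic enzyme ME1 (0.42) and the quinone reductase NQO1 (0.42) were higher. At 48 h the heme oxygenase HMOX1 (1.22), ME1 (0.96), ABCC1 (0.46) and the glutathione synthesis subunit GCLM (0.40) were higher. At 5 d 10 of these targets were lower and none higher (median -0.39), HMOX1 (-2.81), OSGIN1 (-1.58), PGD (-1.04) and SRXN1 (-0.72) the most. Among all tested genes 24.8% were lower and 26.5% higher at 5 d. Whether NRF2 acted on SLC7A11 in these cells was not tested. Among 7 regulators tested, 4 were lower and 1 higher in undifferentiated HBBko cells, 3 and 0 at 48 h and 2 and 1 at 5 d. These counts stand beside the same shares of all tested genes. The erythroid activator KLF1 was lower at each stage (-0.54, -0.46 and -0.39), GATA1 was lower in undifferentiated cells (-0.30), and MYC was higher at 5 d (0.70). Under equal sums the calls of KLF1 at 5 d (-0.056, adjusted p = 0.531, limma) and of NFE2L2 at 48 h (-0.14, 0.0834) were lost, and of the NRF2 targets 8 were higher and 0 lower at 48 h and 2 higher and 7 lower at 5 d.

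Across the 18 libraries the members followed each other to different degrees, as a description over libraries that share 6 groups and the same scaling. Pearson's r of log2(scaled TPM + 1) ran from 0.32 between SLC38A2 and SLC43A1 to 0.99 between SLC1A4 and SLC1A5, and SLC3A2 with SLC7A11 reached 0.98. Among all tested genes outside the set, SLC3A2 was most like CEBPB (r = 0.993), CEBPG and BBC3 (the first pair are C/EBP factors), and SLC6A9 was most like TSPO2, TGM2 and FHDC1. SLC43A1 was most like PHOSPHO1, ASF1A and FBXO8, SLC7A11 most like EIF1, NCOA7 and TAPT1, and SLC7A5 most like CYTH2, SH2B3 and AC138969.1, which GENCODE lists as an unprocessed pseudogene. SLC7A1 was most like SH2B3, YPEL5 and UNC5CL, SLC1A5 most like YPEL5, EIF2S2 and UBALD2, SLC1A4 most like SCARF1, KIF2C and XK, and SLC38A2 most like ELF4, CCNI and CD55. The r of the first-named gene of each ran from 0.987 (SLC7A11 with EIF1) to 0.996 (SLC38A2 with ELF4), over 18 libraries.

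The promoters of the members with a RefSeq entry were searched for the letters of motifs, in windows from 250 bases before to 50 after each start site (RefSeq, GRCh38.p14). Entries for 8 members gave 14 promoters. SLC7A11 had no entry in the promoters used, so its promoter was not searched. The core of the C/EBP-ATF response element, TGATGNAA on either strand, was in 4 of the 14, against 1270 of 35116 promoters in all (3.62%). The core of the antioxidant response element, TGACNNNGC on either strand, was in 4 of the 14 (SLC7A5, SLC3A2, SLC7A1 and SLC1A5), against 13.3% of all promoters, and the GATA motif AGATAA was in 0 of 14, against 10.3%. No match of the first motif overlapped one of the others. A match is a string of letters, and binding was not measured. The 4 promoters with the first motif are shown on the gene's strand, 5' to 3', with the match in capitals, because they hold the core of the element that ATF4 is known to bind.
SLC3A2 (chr11:62881449-62881748, plus strand): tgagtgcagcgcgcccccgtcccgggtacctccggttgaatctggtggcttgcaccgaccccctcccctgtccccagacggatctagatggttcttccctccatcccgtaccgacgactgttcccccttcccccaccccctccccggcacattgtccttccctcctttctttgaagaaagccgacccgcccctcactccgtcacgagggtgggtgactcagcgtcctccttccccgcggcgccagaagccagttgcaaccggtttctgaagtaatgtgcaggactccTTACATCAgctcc
SLC7A1 (chr13:29595639-29595938, minus strand): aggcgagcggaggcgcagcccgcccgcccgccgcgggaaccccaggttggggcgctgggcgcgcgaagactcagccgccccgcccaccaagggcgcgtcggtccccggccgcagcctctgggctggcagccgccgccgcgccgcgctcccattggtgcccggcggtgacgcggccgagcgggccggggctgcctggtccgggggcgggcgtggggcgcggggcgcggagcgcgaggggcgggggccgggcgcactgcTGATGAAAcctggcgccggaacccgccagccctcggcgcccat
SLC1A4 (chr2:64989149-64989448, plus strand): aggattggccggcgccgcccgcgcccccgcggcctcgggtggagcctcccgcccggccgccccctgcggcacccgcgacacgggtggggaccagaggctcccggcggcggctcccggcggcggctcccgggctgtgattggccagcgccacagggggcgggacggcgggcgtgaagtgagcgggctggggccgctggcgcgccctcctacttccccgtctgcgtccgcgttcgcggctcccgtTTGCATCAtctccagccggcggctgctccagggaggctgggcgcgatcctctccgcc
SLC1A5 (chr19:46784765-46785064, minus strand): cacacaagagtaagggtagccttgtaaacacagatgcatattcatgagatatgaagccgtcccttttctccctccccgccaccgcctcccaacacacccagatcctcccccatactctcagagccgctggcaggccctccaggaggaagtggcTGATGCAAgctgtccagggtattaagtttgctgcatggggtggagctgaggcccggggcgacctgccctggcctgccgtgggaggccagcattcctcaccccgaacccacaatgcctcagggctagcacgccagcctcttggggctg

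With the start site counted as base 1, the match began at base 38 in SLC3A2 and at base 8 in SLC7A1, and before the start site at base -7 in SLC1A4 and -97 in SLC1A5. The SLC1A5 promoter shown is that of a start inside the gene, at base 46784814 of chromosome 19, while the gene's 5' end lies at 46788594. SLC3A2 and SLC1A4 have 3 and 2 RefSeq promoters, and the match was in 1 of each.

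All 9 are protein-coding genes in GENCODE v29. The sequencing kit does not mark strand, so reads from a gene and an overlapping antisense gene cannot be told apart. Of the 31-base words in the transcripts of SLC1A5, 22.8% also occur in transcripts of other genes, nearly all of them in the antisense gene AC008622.2 (22.2%). For SLC7A11 the share was 12.2%, most of it in the antisense SLC7A11-AS1 (8.4%). For SLC7A5 it was 11.2%, shared with SMG1P3, SLC7A5P2, AC126696.2 and SLC7A5P1, and for SLC6A9 it was 5.97%, shared with the overlapping CCDC24. The shares were 2% for SLC1A4 and 0.984% for SLC3A2, and 0 for SLC7A1, SLC38A2 and SLC43A1. CCDC24 was listed at 1.18 to 9.13, SLC7A5P1 at 3.54 to 13.1 and SMG1P3 at 4.28 to 29.2 scaled TPM over the 18 libraries and SLC7A5P2 at 0; AC008622.2, SLC7A11-AS1 and AC126696.2 were not analysed here. The values of SLC1A5, SLC7A11 and SLC7A5 are uncertain to that extent.

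The authors' deposited table of HBBko against WT gives the same sign for all 9 genes at each stage. It describes the same experiment, and its direction was compared with the expression table, so it is not independent support for these values. In the authors' deposited table, where SLC7A11 and SLC1A4 had larger values than in the fit on scaled TPM + 1, the log2 fold change of SLC7A11 was -2.55 in undifferentiated cells (q = 1.34e-36), -1.62 at 48 h (q = 4.37e-12) and -0.16 at 5 d (q = 0.176). That of SLC1A4 in the authors' deposited table was -2.63 (q = 2.68e-06), -1.30 (q = 8.37e-05) and -0.05 (q = 0.745), and that of SLC38A2 was -0.24 (q = 0.244), -0.54 (q = 1.76e-12) and -0.83 (q = 8.64e-10). SLC43A1 at 48 h and SLC1A5 at 5 d, whose calls were lost in settings named above, had q-values of 0.00137 and 4.94e-07 in the authors' deposited table.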

How the data were processed

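Libraries of the TruSeq RNA v2 kit, which does not mark strand, were made in triplicate from WT HUDEP-2 and HBBko cells, per the labels' protocols. The submitters' processing notes name kallisto, sleuth and hg38 without versions. The expression table deposited by the authors holds a signal in scaled TPM for 35616 genes in 18 libraries, whose sums differ, so a scaling beyond TPM was applied that is not given in the sources used here. Read depth is unknown, and the number of libraries limits the precision. Columns whose names hold "thal" were read as HBBko and those with "wen" as WT, by name only; within a stage each thal library had less HBB than any wen library. A table of comparisons deposited by the authors gives log2 fold changes and q-values, which were copied and not recomputed.

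Values were tested with limma 3.58.1 (R 4.3.3) on log2(scaled TPM + 1), with a mean for each of 6 groups in 1 fit of all 18 libraries (12 residual degrees of freedom, trended variance), two-sided, with Benjamini-Hochberg adjustment over the 12005 genes at 1 scaled TPM or more in at least 3 libraries. Comparisons were HBBko with WT at each stage, each stage with the one before in each line, and the change of the HBBko effect between stages. The fit was tested on simulated data.

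Labels number the replicates. Deviations from group means of same-numbered libraries correlated at over 0.1 in each of the 3 pairs for HBBko with WT in undifferentiated cells (0.12 to 0.17) and at 5 d (0.13 to 0.18) and for WT at 48 h with undifferentiated WT (0.10 to 0.19), and not in each pair elsewhere. This pairing comes from the data, not from a stated shared day or culture.

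Members and gene lists were chosen with earlier results of these data known. All 9 members were named in each comparison. From each other list, up to 4 called genes with the largest absolute change were named for each HBBko with WT comparison, and the 3 tested genes with the highest Pearson's r with each member. Alternatives were pseudocounts of 0.1 and 5, no filter, equal library sums with and without 11 globin genes, median-of-ratios scaling, a fit of only the groups compared, a replicate block, leaving out each library, and, added after the data were seen, leaving out WT replicate 3 of both early stages and running the other gene lists under these scalings. Promoters came from RefSeq (GRCh38.p14) and gene positions from GENCODE v29.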

Additional observations from a re-analysis of the deposited data

Results flagged for a closer look

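The difference between HBBko and WT changed between stages for 7 of the 18 gene and step pairs, by limma's test of the difference of log2 fold changes. Between undifferentiated cells and 48 h the value was 0.86 for SLC7A11 (adjusted p = 0.0035, limma), 0.69 for SLC6A9 (0.0397), 0.54 for SLC1A5 (0.0132), 0.53 for SLC3A2 (0.0293) and 0.49 for SLC43A1 (0.00853). Between 48 h and 5 d it was 0.86 for SLC7A11 (adjusted p = 0.000923, limma) and 0.57 for SLC7A5 (0.0199). All 7 are positive, so the lower level in HBBko came nearer to WT on this scale. Among all tested genes 7.67% had a positive call in the step to 48 h and 11.5% in the step to 5 d. Over 21 alternative settings SLC3A2 was called in 12 and SLC6A9 in 9 in the step to 48 h. SLC7A5 was called in 19 of 21 in the step to 5 d and was lost without WT replicate 3 at 48 h.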

How the results depend on the processing

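Over 1296 values of the 81 gene and comparison pairs under alternative settings, 1194 kept their direction and their side of the threshold. With the sign kept, 47 lost a call and 31 gained one, and 24 changed sign. Among those 24, SLC1A5 in HBBko against WT at 5 d also lost its call under equal sums (adjusted p = 0.341, limma). SLC7A1 in WT at 48 h also gained a call under equal sums (adjusted p = 0.0279, limma). Leaving out 1 library gave counts of called members of 8 to 9 for HBBko against WT in undifferentiated cells, 7 to 8 at 48 h and 6 to 7 at 5 d, 5 to 5 and 9 to 9 for the steps of HBBko, 5 to 6 and 9 to 9 for those of WT, and 3 to 5 and 1 to 2 for the changes of the HBBko effect. Equal library sums gave 3 called members for HBBko against WT at 5 d, 8 for WT at 48 h against undifferentiated WT and 6 for the change of the HBBko effect from 48 h to 5 d. That change had 1 without the filter, 4 in the fit of only the groups compared and 5 (3 toward 0, 2 away from it) without WT replicate 3 of both early stages; the change to 48 h had 3 without the filter and 3 in the fit of only the groups compared. The causes were not tested. The replicate block changed no call in the paired comparisons. Elsewhere it gave a count of 6 for HBBko at 48 h against undifferentiated HBBko (SLC1A4 0.45, adjusted p = 0.045) and 3 for the change to 5 d (SLC6A9 0.39, adjusted p = 0.049), where libraries share only a number.

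Signs turned for values that were not called, except SLC1A5 at 5 d. For HBBko against WT at 5 d under equal sums these were SLC7A11 (0.17), SLC1A4 (0.27) and SLC1A5 (0.081), and SLC1A4 ran from -0.10 to 0.046 when 1 library was left out. For WT at 48 h they were SLC7A1 under equal sums (-0.14) and -0.0059 to 0.10 with a library left out, SLC1A4 with a pseudocount of 5 (-0.00096), equal sums (-0.10) and -0.15 to 0.34 with a library left out, and SLC1A5 under median-of-ratios scaling (0.037), equal sums without globins (0.0047) and -0.21 to 0.029 with a library left out. For HBBko at 48 h SLC3A2 gave 0.093, 0.056 and -0.051 to 0.0036 in the same order. For the change to 5 d, equal sums gave SLC3A2 0.085 and SLC43A1 0.014, and SLC7A1 gave -0.0028 with a pseudocount of 5, -0.043 without WT replicate 3 of both early stages and -0.043 to 0.065 with a library left out.

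Equal sums moved the median of all genes by over 0.1 in 6 comparisons, to 0.14 at 48 h and 0.27 at 5 d for HBBko against WT, where the medians as tested were 0.02 and 0.02, to -0.28 for WT at 48 h (-0.10), -0.70 for WT at 5 d (-0.20), -0.57 for HBBko at 5 d (-0.20) and 0.15 for the change of the HBBko effect to 5 d (0.00). Median-of-ratios scaling moved it to 0.02, 0.01 and 0.00 for WT at 48 h, WT at 5 d and HBBko at 5 d. Counts of all called genes moved by over 1.5 times in undifferentiated cells (5197 as tested, 2882 in the fit of only these groups), at 48 h (2249 as tested, 1179 without WT replicate 3, 4191 under equal sums, 4275 in the fit of only these groups) and for the change to 48 h (1582 as tested, 830 without HBBko undifferentiated replicate 1, 2481 without WT undifferentiated replicate 1).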
